A study of Mus musculus with 6 samples.

Results

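The immediate early transcription factors of the FOS, JUN and EGR families were examined in neural progenitor cells that lack p53 and were held in 2 growth factor media. The set has 10 genes, chosen by name: Fos, Fosb, Fosl1, Fosl2, Jun, Junb, Jund, Egr1, Egr2 and Ier2. All 10 were found by symbol among the 22057 genes of the deposited table, and all 10 were tested. The cells were cultured neural progenitors, the dividing precursors of neurons and glia, from 3 mice (62, 68 and 69) with the genotype p53-null, which both groups share. The EF group (n = 3) was cultured for 4 days with the growth factors EGF and FGF plus heparin in stem cell medium, and is the control in the series design. The PDGFA group (n = 3) came from the same 3 mice and was cultured for 4 days with PDGFA, a platelet-derived growth factor. The labels do not say how p53 was removed, and they give no age, passage or time since the last medium change. The labels do not make clear whether EGF, FGF or heparin stayed in the PDGFA medium, so each comparison is between the 2 media as a whole.

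Immediate early genes are transcribed within minutes of a growth factor signal, without new protein synthesis, through factors that already sit on their promoters. FOS proteins pair with JUN proteins to form the AP-1 transcription factor, JUN proteins can also pair with each other, and EGR1 and EGR2 are zinc finger factors. Most of their transcripts are short-lived. In growing neural cultures the EGF and FGF receptors feed this response through the RAS and ERK kinases.

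Each library held 27270246 to 39601349 recovered reads. All 10 neural progenitor markers of the list used here were present in both groups, with Nes, an intermediate filament of progenitors, at 33684 ± 13560 normalized counts in EF and 2575 ± 917 in PDGFA (SD, n = 3). Of the 10 progenitor markers 4 fell, Nes among them, and 4 rose, among them the stem cell factor Sox2, from 11175 ± 2538 to 17554 ± 1144. The summed level of 6 proliferation markers was 39747 to 84739 in EF and 1789 to 2010 in PDGFA. That of 11 oligodendrocyte markers was 2537 to 4715 in EF and 292566 to 369141 in PDGFA, and that of 10 astrocyte markers 59724 to 107915 and 191408 to 304661. Mki67, a marker of cycling cells, was at 26210 ± 8172 in EF and 203.0 ± 55.3 in PDGFA. Trp53 was at 2081 ± 367 and 1070 ± 71.6, and since the labels do not give the deleted stretch of the gene these values do not check the genotype. The 7 endothelial and mural cell markers in the table summed to 99.6 to 199.3 in EF and 1272 to 1611 in PDGFA, the neuron markers to 25877 to 31063 and 29899 to 40147, and the Schwann cell markers to 2696 to 5433 and 538.9 to 1283. Most of the neuron sum was Map2, at 26266 ± 3399 in EF and 29493 ± 4216 in PDGFA. Of the 10 tested neuron markers 2 rose and 8 were not called. The PDGFA libraries thus carried glial and some other markers beside the labelled progenitor markers. EF 68 stood apart from the other EF libraries in markers of oligodendrocyte precursors, with Pdgfra, the PDGFA receptor gene, at 14133 against 860.9 and 533.1. Without EF 68, Fos (log2 fold change 1.92, adjusted p = 0.0270), Egr1 (-2.53, 0.00544) and Ier2 (-2.06, 0.00212) were still called, and Jun (-0.98, 0.111) was not. These are bulk samples, so fewer cells of a type and less RNA per cell cannot be told apart, and the part of cell make-up in the values below was not tested. Of the microglia markers, Aif1, Cx3cr1, Tmem119, Itgam, Ptprc and Tyrobp had no row in the data, and the summed level of the others was at most 189.

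Promoter windows in the RefSeq table (GRCm38.p6, from 250 bases before to 50 after a start site) were found for 7 of the 10 members, Fos, Fosb, Fosl2, Jun, Junb, Jund and Egr2. The 150 bases before the start are shown for Fos, which rose in PDGFA, and for Jun, which fell. They are also shown for a start of Egr2, the EGR gene with a window. These stretches hold known elements of immediate early promoters, and Fos and Egr2 both carry the CRE core. Capitals mark the CRE core TGACG, the CRE/AP-1 octamer TGACNTCA, the CArG box bound by serum response factor (SRF) and the TATA element TATAA, each searched on both strands.
Fos, chr12:85473740-85473889, plus strand: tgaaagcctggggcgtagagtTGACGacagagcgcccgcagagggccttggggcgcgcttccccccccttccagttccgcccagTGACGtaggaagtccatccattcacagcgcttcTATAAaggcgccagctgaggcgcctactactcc
Jun, chr4:95052223-95052372, minus strand: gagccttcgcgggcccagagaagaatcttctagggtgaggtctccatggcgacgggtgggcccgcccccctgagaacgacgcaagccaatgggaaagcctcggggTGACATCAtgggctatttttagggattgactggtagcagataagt
Egr2, chr10:67537719-67537868, plus strand: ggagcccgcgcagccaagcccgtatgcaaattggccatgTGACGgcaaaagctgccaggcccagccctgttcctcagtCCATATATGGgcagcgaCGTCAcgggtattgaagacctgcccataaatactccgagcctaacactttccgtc
Fos held the CRE core 66 to 62 bases before its start and again from 129 to 125, and TATAA from 33 to 29. No CArG box was in the Fos window, but bases further than 250 before the start were not searched. Jun held the octamer as TGACATCA, 45 to 38 bases before its start, and no CRE core. In Egr2 a CArG box lay 72 to 63 bases before this start, between 2 copies of the CRE core. The nearer copy reads CGTCA because it is on the other strand. Egr2 has several RefSeq start sites, and their windows differ. That of the start at 67535499 held none of the motifs searched here. That of the start at 67537566 held a CArG box but no CRE core. The windows of Fosb and Junb also held the CRE core. Of all 32851 RefSeq windows, 20.8% held the CRE core, 8.83% the octamer, 24.9% TATAA and 1.63% a CArG box, and a window whose octamer has G as its middle N counts for the core too. The AP-1 heptamer TGANTCA was in none of the members' windows and in 7.81% of all windows. The EGR motif GCGNGGGCG, in 5.55% of all windows, was in those of Fosb and Fosl2. A match is a description of the sequence, and these letters say nothing of what was bound in the cells.

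Of the 10 genes 1 rose and 3 fell. Fos rose 3.73-fold in PDGFA, while Egr1 fell to a mean 5.46-fold lower, Ier2 to a mean 3.97-fold lower and Jun to a mean 2.20-fold lower. Of the 10 members 1 was called higher, against 21.8% of all 17068 tested genes, and 3 were called lower, against 18.0%. In either direction these were 4 of 10, against 39.8%, and 5 of 10 had an unadjusted p under 0.05, against 49.1%. In 5 members the groups did not overlap, against 55.5% of tested genes. Of these 1 was higher and 4 were lower, against 29.2% and 26.3%. The number of changed members was thus near the background. The median log2 fold change of the 10 members was -0.48, beside -0.01 over all tested genes. A call is an adjusted p under 0.05 in limma on log2(normalized count + 1), with Benjamini-Hochberg adjustment over all tested genes, and all adjusted p-values below are from that fit unless another tool is named.

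**Figure D1:**
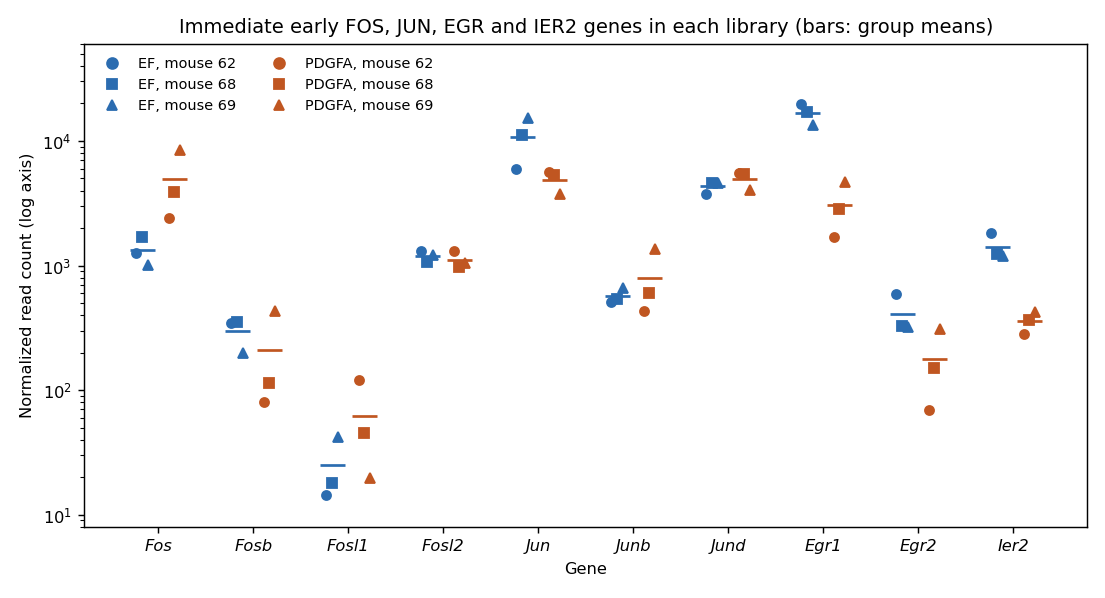
Normalized read count (log axis) of the 10 genes in the 3 EF libraries (blue) and the 3 PDGFA libraries (orange), with a symbol per mouse and bars at the group means. The PDGFA points of Fos (2417 to 8506) lie above all EF points, those of Egr1 (1706 to 4666) and Ier2 (284.3 to 423.8) lie below, and several members spread widely within PDGFA.

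**Figure D2:**
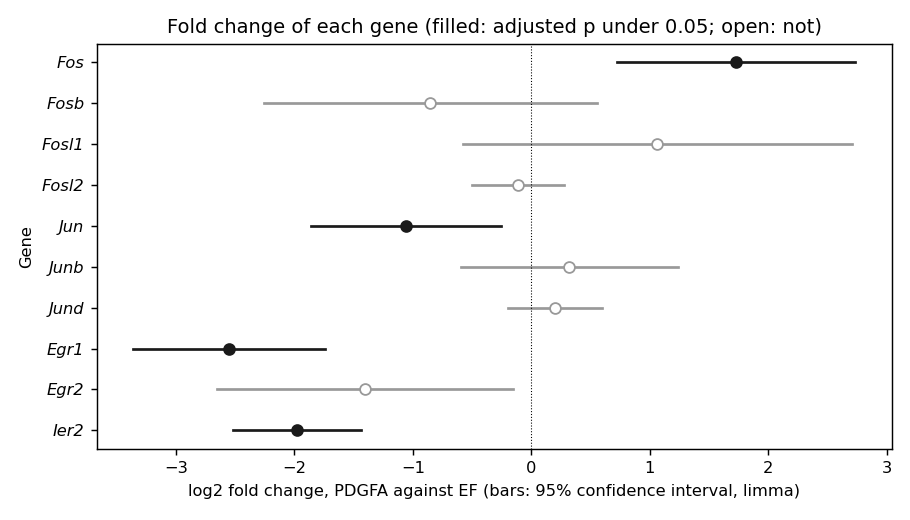
Log2 fold change of PDGFA against EF for each gene, with 95% confidence intervals from limma. Filled points are Fos, Jun, Egr1 and Ier2, whose adjusted p was under 0.05, and open points are the 6 other genes.

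Among the FOS family, Fos itself (chromosome 12, 85473890 to 85477273, GRCm38) was the member that changed. In EF, mice 62, 68 and 69 gave normalized counts of 1268, 1684 and 1015, and with PDGFA the same mice gave 2417, 3861 and 8506. Every PDGFA library was above every EF library, and mouse 69, lowest in EF, was highest in PDGFA. The log2 fold change was 1.73 (SE 0.43, 95% confidence interval 0.73 to 2.74, adjusted p = 0.0163), higher in all 3 pairs. Without EF 69 the adjusted p was 0.0503, without both libraries of mouse 68 it was 0.0594, and without both libraries of mouse 69 it was 0.0504 with a log2 fold change of 1.06. The lowest and highest adjusted p among the 18 alternatives were 0.00014 and 0.0594.

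Fosb (chromosome 7, 19302696 to 19310051), which like Fos carries a transactivation domain and forms AP-1 with JUN proteins, did not follow Fos. It read 345.7, 349.0 and 198.2 in EF and 80.6, 114.6 and 434.5 in PDGFA. The PDGFA libraries of mice 62 and 68 were below all EF libraries and that of mouse 69 was above them. The fitted log2 fold change of -0.85 (SE 0.60) was not called (adjusted p = 0.297). Without PDGFA 69 it was -1.57 with an adjusted p of 0.0241, and without both libraries of mouse 69 it was -1.84 (adjusted p = 0.0128; 0.0128 to 0.805 over the alternatives).

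Fosl1 and Fosl2 encode FRA1 and FRA2, FOS relatives that lack the strong transactivation domain of FOS. Fosl1 (chromosome 19, 5447547 to 5455946) rested on 15, 16 and 33 reads in EF and 142, 47 and 22 in PDGFA. Its normalized counts were 14.4, 18.0 and 42.2 in EF and 120.5, 44.9 and 19.7 in PDGFA, so the groups overlapped. The fitted log2 fold change of 1.06 (SE 0.70) was not called (adjusted p = 0.265). Over 57.2% of its exon bases Fosl1 overlaps Ccdc85b on the opposite strand, which read 818.0 to 2613 per library. The library kit does not mark strand, so reads in the overlap cannot be told apart. Fosl2 (chromosome 5, 32135801 to 32157842) was level, at 1314, 1073 and 1208 in EF and 1316, 974.0 and 1055 in PDGFA. The 95% confidence interval of its log2 fold change of -0.11 was -0.50 to 0.28 (adjusted p = 0.628).

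Jun (chromosome 4, 95049034 to 95052222), the strongest transactivator of the JUN family, moved against Fos. It read 5920, 11161 and 15275 in EF and 5670, 5313 and 3726 in PDGFA. The groups did not overlap, but EF 62 stood only slightly above PDGFA 62. Jun was lower in all 3 pairs, by a fitted -1.06 on the log2 scale (SE 0.34, adjusted p = 0.0437). With the mouse as a block the adjusted p was 0.056, and without the mean trend it was 0.0768. It was 0.111 without EF 68, 0.101 without EF 69, and 0.0729, 0.0911 and 0.146 without PDGFA 62, 68 and 69 (0.00384 to 0.243 over the alternatives). It was 0.186 and 0.243 without both libraries of mouse 68 and of mouse 69. Without both libraries of mouse 62 Jun was still called (log2 fold change -1.55, adjusted p = 0.00851). Jun overlaps the antisense gene Junos over 7.28% of its exon bases, and Junos read 74.1 to 105.0 per library.

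Junb and Jund are JUN relatives with weaker transactivation, and Jund is the member usually expressed in resting cells. Junb (chromosome 8, 84974484 to 84978718) read 509.5, 539.3 and 655.8 in EF and 430.3, 604.4 and 1351 in PDGFA. Only PDGFA 69 lay above all EF libraries. The fitted log2 fold change of 0.32 (SE 0.39) was not called (adjusted p = 0.545). It was -0.15 without PDGFA 69 and 0.68 without PDGFA 62. Junb overlaps Prdx2 on the opposite strand over 7.52% of its exon bases. Prdx2 read 5330 to 8273 in EF and 10110 to 10503 in PDGFA, and reads in the overlap cannot be told apart. Jund (chromosome 8, 70698949 to 70700616) read 3747, 4570 and 4613 in EF and 5528, 5387 and 4034 in PDGFA. The fit gave 0.20 on the log2 scale, with a 95% confidence interval of -0.20 to 0.60 (adjusted p = 0.381). Over 52.6% of its exon bases it overlaps the antisense gene Gm11175, which read 66.8 to 122.7 per library.

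Egr1 and Ier2 fell in PDGFA, and Egr2 had a lower mean there. Egr1 (chromosome 18, 34859823 to 34864984), the prototype of the growth factor responsive zinc finger genes, read 19815, 16969 and 13496 in EF and 1706, 2834 and 4666 in PDGFA. The lowest EF library, of mouse 69, was far above the highest PDGFA library, also of mouse 69. Egr1 was lower in all 3 pairs, with a log2 fold change of -2.55 (SE 0.35, 95% confidence interval -3.36 to -1.74, adjusted p = 0.00114), and was called in all 18 alternatives. Egr2 (chromosome 10, 67535475 to 67542188), also known as Krox20 and required for myelination by Schwann cells of peripheral nerve, read 588.0, 326.5 and 319.6 in EF and 68.7, 150.9 and 311.8 in PDGFA. The groups just failed to overlap, with PDGFA 69 close to EF 69. The fitted -1.41 on the log2 scale (SE 0.54, adjusted p = 0.0717) was not called, although it was lower in all 3 pairs. It was called without PDGFA 69 (log2 fold change -1.94, adjusted p = 0.0232) and without both libraries of mouse 69 (-2.09, adjusted p = 0.0395; 0.0232 to 0.292 over the alternatives). Ier2 (chromosome 8, 84661331 to 84662852), a small immediate early nuclear protein, read 1821, 1234 and 1197 in EF and 284.3, 362.8 and 423.8 in PDGFA. It was lower in all 3 pairs, with a log2 fold change of -1.98 (SE 0.23, 95% confidence interval -2.52 to -1.44, adjusted p = 0.00056), and was called in all 18 alternatives.

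Levels of different genes were compared as normalized counts per kb of exon. In EF the order of the group means was Egr1 (3738 ± 706 per kb), Jun (3382 ± 1470), Jund (2584 ± 292), Ier2 (931.0 ± 230), Fos (562.3 ± 144), Junb (246.9 ± 33.6), Fosl2 (123.8 ± 12.5), Egr2 (121.1 ± 45.0), Fosb (47.7 ± 13.8) and Fosl1 (12.2 ± 7.44), with SD and n = 3. Jun overlapped with Egr1 and with Jund between libraries, and Fosl2 with Egr2. In PDGFA the order was Jund (2987 ± 495), Fos (2095 ± 1353), Jun (1537 ± 324), Egr1 (684.4 ± 333), Junb (345.6 ± 213), Ier2 (234.6 ± 45.9), Fosl2 (115.2 ± 18.5), Egr2 (52.1 ± 36.4), Fosb (33.6 ± 31.3) and Fosl1 (30.4 ± 25.8). Fos thus ranked 5 in EF and 2 in PDGFA, and Egr1 1 and 4. In PDGFA the neighbours that overlapped between libraries were Jund and Fos, Fos and Jun, Egr1 and Junb, Junb and Ier2, Egr2 and Fosb, and Fosb and Fosl1. Compared within each PDGFA library, however, Egr1 was above Junb, Junb above Ier2 and Egr2 above Fosb in all 3, if only narrowly for Junb in mouse 62. The order of the other 3 pairs differed between the mice. These orders rest on the union of exons, which for Fosb is 6243 bases against 3782 in its longest transcript. For Egr2 these lengths are 3398 and 2965 bases. Orders of genes close in level were not checked with the longest transcript.

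The make-up of the AP-1 transcript pool shifted toward Fos and away from Jun. Fos made up 73.1%, 80.3% and 70.9% of the summed FOS family level per kb in EF and 83.2%, 92.1% and 95.1% in PDGFA. Fosb, at 6.33% ± 1.15 of that sum in EF, was at 1.30% ± 0.46 in PDGFA. Of the summed JUN family level Jun made up 42.9%, 54.1% and 61.1% in EF and 33.7%, 32.3% and 28.0% in PDGFA. Jund made up 43.2% ± 8.37 and 61.1% ± 2.75. The libraries of the groups did not overlap in the shares of Fos, Fosb, Fosl2, Jun and Jund in their own family, and did in those of Fosl1 and Junb. Shares within a family depend on each other, since a larger share for a gene leaves less for the rest. By their own levels Fosb, Fosl2 and Jund were not called, and their groups overlapped.

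**Figure D3:**
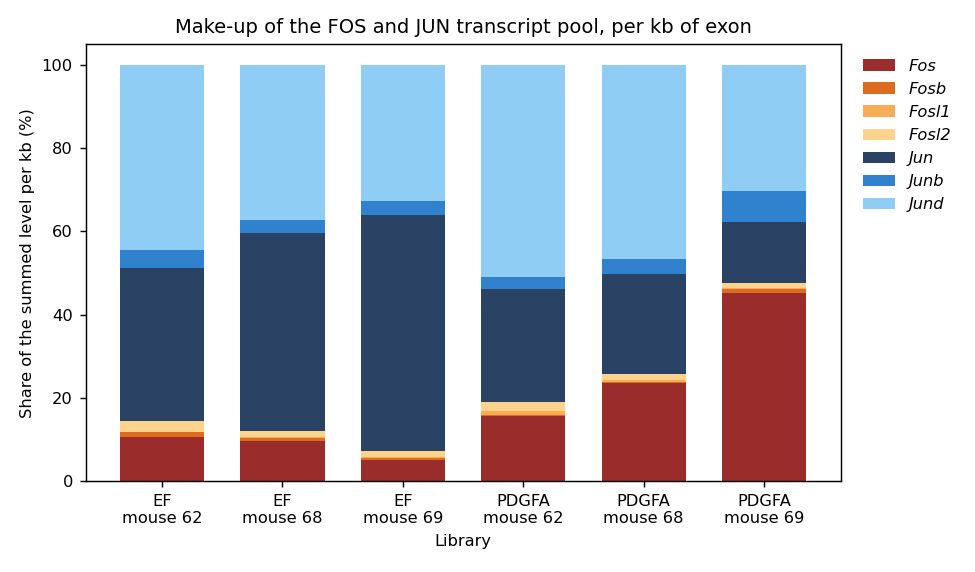
Share of each gene in the summed FOS and JUN level per kb of exon, in percent, in the 3 EF and the 3 PDGFA libraries. Fos (dark red) makes up 5.11% to 10.7% of the pool in EF and 15.8% to 45.3% in PDGFA, and Jun (dark blue) 36.7% to 56.7% and 14.6% to 27.3%.

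For the summed FOS family level the libraries gave 737.3, 891.7 and 608.9 per kb in EF and 1236, 1783 and 3805 in PDGFA, a log2 difference of 1.46. For the summed JUN family level they gave 4324, 6474 and 7840 in EF and 5279, 5159 and 4174 in PDGFA, a log2 difference of -0.32, with overlapping groups (exact two-sided permutation test, p = 0.3). For the FOS sum and for the ratio of the FOS to the JUN sum the groups did not overlap, and each exact permutation p was 0.1, the smallest that 3 libraries against 3 can give. With the mice kept as pairs, the exact p was 0.25 for each of these, the smallest that 3 pairs can give. This ratio stood at 0.17, 0.14 and 0.078 for the EF cultures and at 0.23, 0.35 and 0.91 for the PDGFA cultures. JUN family transcripts thus outnumbered FOS family transcripts per kb in all 6 libraries, by the least in PDGFA 69. The log2 difference in the ratio was 1.78, and 0.89 without both libraries of mouse 69.

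Fos and Egr1, often read out together as markers of ERK signalling, parted between the media. Per kb, Fos was at 0.12, 0.19 and 0.14 times the level of Egr1 in EF, and at 2.70, 2.60 and 3.48 times in PDGFA. This ratio was singled out after its values were seen. The log2 difference between the groups was 4.28, a 19.5-fold shift that is given as a description with no test. A ratio within a library does not depend on the size factor. Within PDGFA the ratio of the highest to the lowest library was 3.52 for Fos and 2.73 for Egr1, but 1.34 for the ratio of the genes to each other. The 3 PDGFA cultures therefore differed in the level of both genes by a similar factor, in the same order of mice.

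**Figure D4:**
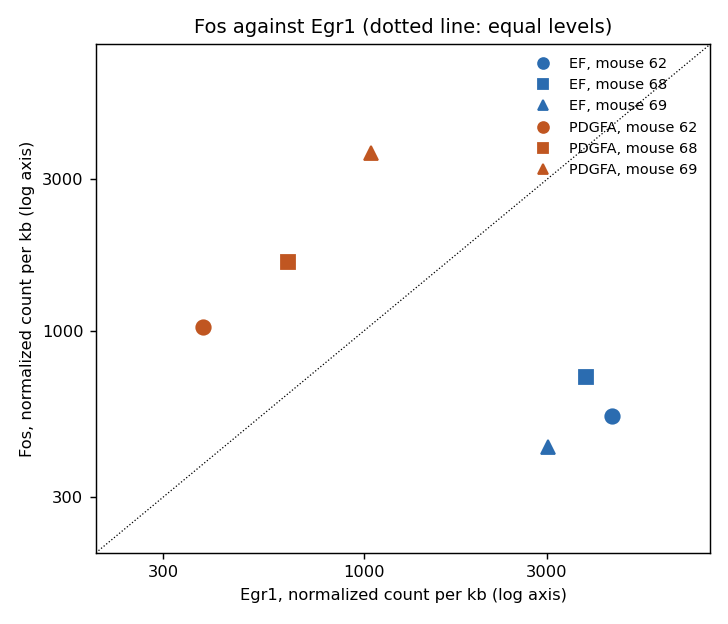
Fos against Egr1 in normalized counts per kb of exon (log axes), 1 point per library, with the dotted line at equal levels. The EF libraries lie below the line and the PDGFA libraries above it, where mouse 62 has the lowest and mouse 69 the highest level of both genes.

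The members varied more between PDGFA cultures than most genes did. The SD of log2 values between the 3 libraries was larger in PDGFA than in EF for 8 of the 10 members, all but Jun and Ier2, against 18.7% of all tested genes. It was above 0.7 in PDGFA for 6 members, against 6.25% of tested genes, whose median SD was 0.17 in PDGFA and 0.38 in EF. These 6 were Fos (0.92), Fosb (1.27), Fosl1 (1.28), Junb (0.85), Egr1 (0.73) and Egr2 (1.08). For 5 of them, and for Ier2, the PDGFA library of mouse 69 was the highest and that of mouse 62 the lowest, and Fosl1 had the reverse order. PDGFA 69 was the highest PDGFA library for 6 of the 10 members, against 38.2% of tested genes. PDGFA 62 was the highest for 4, against 33.7%, and PDGFA 68 for 0, against 28.2%. In EF the highest library was that of mouse 62 for 4 members, of mouse 68 for 2 and of mouse 69 for 4, against 34.7%, 24.0% and 41.3% of tested genes.

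Summed astrocyte and summed oligodendrocyte markers differed between the PDGFA cultures in the same order. The summed astrocyte markers were 191408, 230822 and 304661 for mice 62, 68 and 69, with PDGFA 69 highest in 9 of the 10 tested markers. The summed oligodendrocyte markers were 292566, 346087 and 369141, with PDGFA 69 highest in 6 of the 10 tested markers. Mbp, at 54645, 80137 and 102742, weighed heavily in that order, while Cnp, Myrf, Enpp6 and Ugt8a were highest in PDGFA 68. The summed markers of oligodendrocyte precursors ran the other way, at 206476, 184500 and 129305. The summed heat shock genes were 78975, 77930 and 70699, and did not follow the order of the astrocyte markers. Much of that sum was Hsp90ab1 (40716, 41189 and 38032) and Hspa8 (19999, 19561 and 18041). PDGFA 69 was highest for 2 of the 10 heat shock genes, the low Hspa1a (25.5, 33.4 and 35.8) and Hspb1 (11.9, 20.1 and 28.7). Both had the same order of PDGFA cultures as Fos. Whether these differences bear on the immediate early genes was not tested.

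Genes whose profile over the 6 libraries was most like that of a member were found as the smallest root mean square difference between centred log2 profiles, among 12050 genes with a mean of at least 100. For Egr1 these were Egr3 (0.15), the EGF receptor gene Egfr (0.16) and Abcc12 (0.19). Egfr read 31233, 29885 and 25623 in EF and 3371, 4031 and 7523 in PDGFA. Like Egr1 it was lowest in PDGFA 62 and highest in PDGFA 69, an order that the choice by likeness favours. For Fos they were Septin4 (0.22), Usp35 (0.27) and Elmod3 (0.30). For Jun they were Jpt1 (0.074), the pseudogene Eif5al3-ps (0.078) and Eif5a (0.095), and the near-identical copies of Eif5a may share reads. For Ier2 they were Wnt5a (0.11), Cep72 (0.16) and Tbc1d31 (0.17). Of the other members Ier2 was the most like Egr1 (0.40), and Egr1 the least like Fos (2.15), among the 9 genes with a mean of at least 100. With 6 libraries in 2 groups, likeness mostly reflects the size of the difference between the media.

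Of 107 tested genes in 10 lists of related genes 15 rose and 37 fell, beside 21.8% and 18.0% of all tested genes, shares against which each list's count below is to be read. Among those that act upstream of the immediate early promoters, SRF, which binds the CArG box, works with the ternary complex factors ELK1, ELK3 and ELK4 and with the actin-responsive coactivators MRTFA and MRTFB. Of these 6 genes 3 fell and none rose, with a median log2 fold change of -0.51. Elk3, which can repress SRF targets until ERK phosphorylates it, went from 3732 ± 1144 to 951 ± 319 (log2 fold change -1.99, SE 0.30, adjusted p = 0.00192), and Mrtfb and Mrtfa fell by 0.93 and 0.67 on the log2 scale. Without both libraries of mouse 68 or of mouse 69 Mrtfa was not called. For Srf the fitted log2 fold change was -0.15 (adjusted p = 0.494) and for Elk1 0.27 (adjusted p = 0.131).

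Of 6 genes of CREB, the factor of the CRE, and its coactivators, 1 rose, Crtc1 (0.81, adjusted p = 0.00933; not called without both libraries of mouse 68). Of 6 RSK and MSK kinases, which ERK activates and which phosphorylate CREB, Rps6ka5 (MSK1) rose by 1.03 and Rps6ka3 (RSK2) fell by 0.93 on the log2 scale. The call of Rps6ka5 was lost without PDGFA 68 and without both libraries of mouse 68 or of mouse 69. Of 10 tested JNK and p38 kinases and their activators, 1 rose and 4 fell. Mapk10 (JNK3), a kinase of JUN, rose by 1.75, while the p38 kinase Mapk12 and the p38 activators Map2k6 and Map2k3 fell by 3.08, 1.73 and 0.78. The other fall, Mapk14 (-0.43, adjusted p = 0.0448), is named outside the rule. Without both libraries of mouse 69 neither Mapk10 nor Map2k3 was called, and Map2k3 was not called without PDGFA 69 or both libraries of mouse 68 either.

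Of 14 tested bZIP factors that can pair with FOS or JUN proteins, 2 rose and 2 fell, with a median of 0.17. Maf read 403.2, 548.3 and 383.5 in EF, against 1604, 1670 and 1505 in PDGFA (log2 rise 1.85), and the small MAF gene Mafk rose from 147.1 ± 25.7 to 306.6 ± 43.1. Maff, another small MAF gene, and Atf4 of the stress response fell by 1.34 and 1.02. The call of Mafk was lost without PDGFA 69, that of Maff without PDGFA 68, and that of Atf4 without either of these.

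Most relatives of the EGR and IER members fell in PDGFA. All 4 tested EGR relatives and NAB corepressors fell, with a median of -2.74. Egr3 read 715.4, 596.7 and 589.4 in EF and 55.2, 92.6 and 146.9 in PDGFA (log2 fold change -2.78, adjusted p = 0.000825), and Egr4 went from 311.0 ± 234 to 15.6 ± 6.84. Nab2, an EGR target whose protein represses EGR1, went from 3770 ± 883 to 569.3 ± 36.2 (-2.70, SE 0.19, adjusted p = 6.29e-05). Nab1, outside the naming rule, fell by 1.09. Of the IER relatives Ier3, a survival gene, went from 756.4 ± 39.5 to 82.9 ± 82.6 and Ier5l fell by 1.98, while Ier5, at 0.46, was not called (adjusted p = 0.342). Ier5l was not called without both libraries of mouse 68.

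Other immediate early genes went both ways, with 6 of 36 higher, 11 lower and a median of -0.15. Plk2, a polo-like kinase, went from 6523 ± 1729 to 550.7 ± 29.4, Klf10, a zinc finger factor, from 6883 ± 1085 to 1176 ± 90.3, and Dusp1, a phosphatase of JNK and p38, from 1225 ± 324 to 173.3 ± 20.6. The rises with the smallest p were Sgk1, a kinase induced by serum and glucocorticoid (563.0 ± 233 to 3653 ± 1050), and the stress genes Gadd45a and Gadd45b, with log2 fold changes of 2.76, 2.46 and 2.94. Gadd45b read 37.3, 77.7 and 70.3 in EF and 231.7, 481.3 and 873.5 in PDGFA, in the same order of PDGFA cultures as Fos. PDGFA 69 was the highest PDGFA library for 20 of the 36. Zfp36, singled out after its values were seen, encodes a protein that destabilizes transcripts with AU-rich elements, and read 273.9, 377.2 and 451.3 in EF and 421.0, 627.3 and 2044 in PDGFA (log2 fold change 1.18, adjusted p = 0.123). The AU-rich nonamer TTATTTATT was in the 3′ UTR of Fos and Fosl2 among the members, and in 8.39% of 13149 tested genes.

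**Figure D5:**
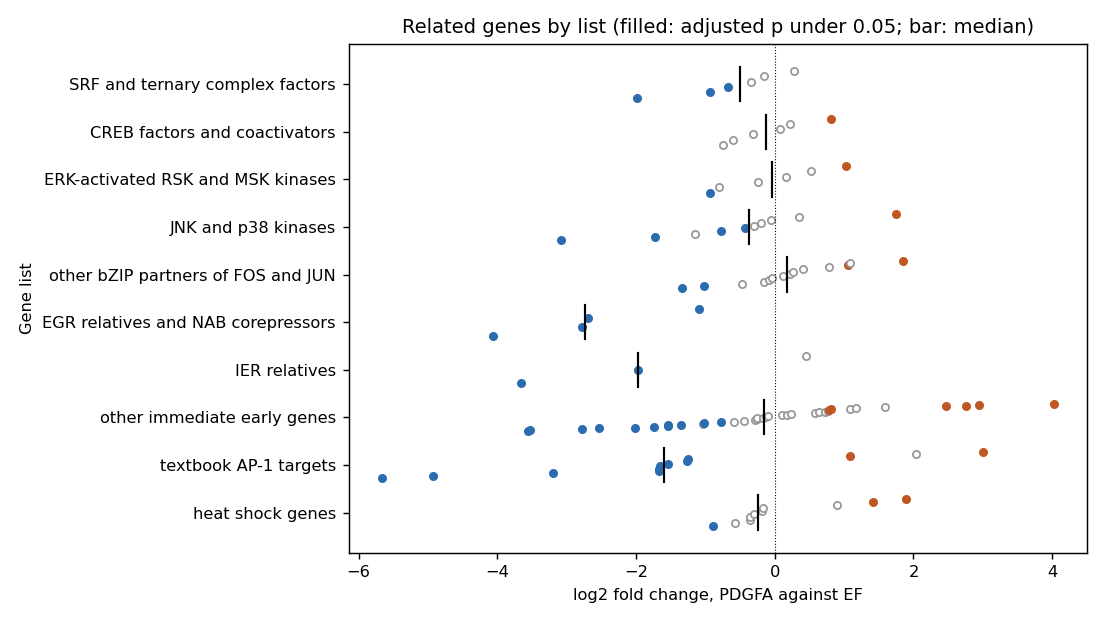
Log2 fold change of PDGFA against EF for each tested gene of the 10 lists of related genes, with filled points where the adjusted p was under 0.05 and black bars at the list medians. The EGR relatives lie wholly below 0, with a median of -2.74, and the other immediate early genes lie on both sides, with a median of -0.15.

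Of 12 tested textbook AP-1 targets 2 rose and 9 fell, beside 21.8% and 18.0% of all tested genes, with a median of -1.59. Ccnd1, the D-type cyclin of G1 phase, went from 53844 ± 23103 to 1692 ± 426, Spp1 (osteopontin) from 853.1 ± 840 to 12.6 ± 7.64, and Hbegf, a ligand of the EGF receptor, from 1220 ± 289 to 383.4 ± 83.6. Ezr, a linker of membrane and actin, rose from 488.3 ± 10.1 to 3993 ± 782, and Hmox1, the heme oxygenase of oxidative stress, rose by 1.08. The call of Hmox1 was lost without both libraries of mouse 68 or of mouse 69. Vim, which fell by 1.53, is also on the progenitor list, and Ccnd1 is a cell-cycle gene. All 6 proliferation markers fell in the same comparison, and their part in the list's values was not tested. Of 10 heat shock genes 2 rose and 1 fell, with a median of -0.24. Hspa1a and Hspb1 rose from 11.2 ± 2.59 to 31.6 ± 5.43 and from 4.53 ± 1.63 to 20.2 ± 8.39, and both were not called without EF 68, PDGFA 68 or PDGFA 69. Hspd1 fell by 0.90, a call that was lost on leaving out EF 68, PDGFA 62, PDGFA 68 or PDGFA 69.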

How the data were processed

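RNA of 6 cultures was sequenced from polyadenylated RNA with the NEBNext Ultra II kit, per the labels' protocols. The authors deposited normalized signal, meaning gene-level read counts that were scaled by a size factor for each library. FastQC, STAR, DESeq2 and mm10 (GRCm38) are listed, without versions, per the submitters' processing notes. For the annotation release and the strand setting, the sources used here give nothing. Dividing the deposited values of a library by its smallest nonzero value gave whole numbers, within 0.001, for 100% of values, and these are the recovered reads. Genes with a mean normalized count of at least 10 were tested (17068, with 4989 left out) as log2(normalized count + 1) with limma 3.58.1 (mean trend, group as the only term, two-sided) in R 4.3.3, with Benjamini-Hochberg adjustment at 0.05. The pseudocount makes fold changes of low genes too small. Count tests on the recovered reads used edgeR 4.0.16 (quasi-likelihood) and DESeq2 1.42.0. Exact permutation tests used scipy 1.17.1. The limma, edgeR and DESeq2 tests, but not the exact tests, were also run on simulated reads. That simulation had no pairing by mouse and far fewer changed genes than these data, so it does not check the tests under those conditions.

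Gene positions and exon lengths (the union of exons) are from GENCODE M21 (GRCm38), which 97.4% of the symbols matched. Both groups hold the same 3 mice, by the numbers in their titles, so libraries pair by animal. The 2 libraries of mice 62, 68 and 69 had correlations of -0.091, 0.11 and -0.11 between their deviations from the group means. Libraries within a group differed by more than the noise of read sampling (ratios of chi-square to its degrees of freedom from 20.0 to 140). The members and lists were chosen with earlier results of these data known. From each list of related genes up to 3 called genes a direction, with the smallest p, were named, and for Fos, Jun, Egr1 and Ier2 the 3 genes of most similar profile. Alternatives changed the pseudocount, the filter, the normalization, the trend, the tool, the exon length, the mouse block or the libraries used.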

Additional observations from a re-analysis of the deposited data

How the results depend on the processing

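Of the 10 members, Egr1, Ier2, Fosl1, Fosl2 and Jund kept their direction and their side of the threshold in every alternative run for them, and Fos, Fosb, Jun, Junb and Egr2 did not. Fosl1 had no value with a minimum mean of 50. Junb turned from 0.32 to -0.15 without PDGFA 69 (its other extreme being 0.68 without PDGFA 62) and to -0.039 without both libraries of mouse 69. Of 44 other named genes 27 kept both in every alternative, and no direction turned. The members called higher numbered 0 to 1 when a library or a mouse was left out, 0 being without EF 69, without both libraries of mouse 68 and without both of mouse 69. With the mouse as a replicate block they numbered 1 and those called lower 2, since Jun lost its call (adjusted p = 0.056). Among the other named genes only Hspa1a lost its call under the block. With DESeq2 the adjusted p of Egr2 was 0.0505. Over all tested genes, 3720 were called higher and 3076 lower. With 1 library left out these counts ran from 2306 (without PDGFA 68) to 4213 (without EF 62) and from 1855 to 3848 (the same libraries), and leaving out mouse 68 altogether gave 1945 and 1335. The log2 difference in the FOS to JUN ratio, 1.78, was 0.89 without both libraries of mouse 69 and 2.44 without both of mouse 62. The exact test with the mice as pairs was chosen after seeing the data, and for the JUN sum it gave p = 0.5. The causes were not tested. Depth limits Fosl1, with 275 reads over the 6 libraries.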
